A study of Mus musculus with 12 samples.

Results

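The genes described here are 10 mouse genes for surface proteins of costimulation, activation and adhesion on B cells, chosen by their Entrez gene IDs in the deposited table of 27179 genes. They are Cd80, Cd86, Icosl, Cd274, Pdcd1lg2, Cd69, Cd83, Icam1, Cd44 and Cd24a, and each had 1 row in the table. All 10 were among the 12750 genes that passed the filter on low counts and were tested. RNA-Seq covered 12 libraries of splenic B cells from young adult male C57BL/6 mice, with 2 biological replicates at each of 6 stages. The naive cells were untreated and were sorted as TCRβ- B220+ cells with IgM and high IgD. The cells of the other 5 stages were cultured with 25 µg/ml lipopolysaccharide (LPS) from Salmonella typhosa, a bacterial product that B cells sense through a Toll-like receptor. Activated cells that had not yet divided were taken at 3, 10 and 33 h, as TCRβ- CD69+ cells that kept the most CellTrace Violet, a dye diluted at each division. The last pair of populations came from day 4 cultures, where CD22 marked the expanded B cells and CD138 the plasmablasts, each without the other marker. CD69 protein was therefore part of the gate at 3, 10 and 33 h and of none of the other gates. No stage had an unstimulated culture of the same age, so the effects of LPS and of time in culture cannot be told apart. The cultures started from B cells isolated by negative selection, and those of 3 to 33 h were denser than those of day 4. The effects of starting population and of density cannot be told apart from those of stage either. Nor can that of the CD69 gate, for any of the 10 genes, where 3, 10 or 33 h is compared with the other stages.

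B cells present antigen to T cells, and the outcome depends on the ligands that they show beside it. CD80 and CD86 engage CD28 and CTLA-4 on T cells, ICOSL engages ICOS, and PD-L1 (Cd274) and PD-L2 (Pdcd1lg2) engage the inhibitory receptor PD-1. These 5 proteins belong to the B7 family. CD69 and CD83 are classical markers of lymphocyte activation. ICAM-1 is the ligand of the integrin LFA-1, CD44 binds hyaluronan in the matrix around cells, and CD24 is a small glycosylated protein held in the membrane by a lipid anchor.

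Total counts ran from 23026619 to 60585587 per library, with a median of 37839944.5, and a count of 3 was taken as the floor. The lowest member counts were 5 of Cd80 in a naive library and 5 of Pdcd1lg2 in a plasmablast library, both above it. Cd22, a B cell marker, averaged 1.25 CPM (counts scaled by the total of the library) in the CD22- plasmablasts, against 405 CPM in expanded B cells. Jchain, a gene of antibody secretion, averaged 12186 CPM in plasmablasts and 661 CPM in expanded B cells. The naive libraries also held markers of other cells. Of 9 markers of monocytes, macrophages and neutrophils, 8 were over 3 counts in both naive libraries, with a summed level of 168 to 335 CPM, and Lyz2 averaged 93.1 CPM. At 3 h the same list summed to 21.7 to 58.0 CPM, and Csf1r, Lyz2, Cd14, Ly6g, S100a8, S100a9 and Csf3r were all at or under the floor. From 10 h to expanded B cells the list summed to between 103 and 154 CPM, where Mpeg1 and Adgre1 were the only markers over the floor in both libraries, and plasmablasts had at most 1.42 CPM. Erythroid markers summed to 146 to 196 CPM in naive cells and to at most 2.11 CPM at any later stage. T cell markers other than Lck and NK cell markers were low throughout, at most 9.50 CPM for a single gene, and were highest in naive cells except Cd3g and Cd8b1. Dendritic cell markers summed to 6.29 to 6.55 CPM in naive cells and 55.3 to 80.1 CPM at 3 h, of which Zbtb46 made up 59.5 CPM, while Siglech, Clec9a and Batf3 were at or under the floor. The part of these cells in the naive levels and in the changes from naive to later stages was not tested. In these bulk libraries, fewer cells that express a gene and less RNA per cell cannot be told apart.

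Levels are given as RPKM (reads scaled by exon length and by library size after TMM normalization), which allows genes to be compared with each other. Changes are log2 fold changes with an approximate standard error, the size of the change over the square root of F in edgeR's quasi-likelihood F-test. A gene was called where edgeR's glmTreat, which asks whether a change exceeds 1.5-fold, gave an adjusted p under 0.05. In the first 3 h, 7 of the 10 genes rose and 0 fell, against 21.0% of all tested genes that rose and 24.3% that fell. The genes that rose were Cd83, Cd44, Icam1, Cd80, Cd86, Cd69 and Cd274, and Icosl, Pdcd1lg2 and Cd24a were not called. The median log2 fold change of the 10 genes was 3.04, and that of all tested genes was -0.03. Cd83 and Cd44 ranked 191 and 193 among the 12750 genes by the size of the rise. From 3 to 10 h the direction turned for all but Cd80 among those that had risen: 7 members fell, Icosl among them, and 1 rose, against 13.4% and 17.4% of all tested genes. From 10 to 33 h, 5 members fell and 1 rose, where 4.45% and 10.1% of all tested genes did so.

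**Figure D1:**
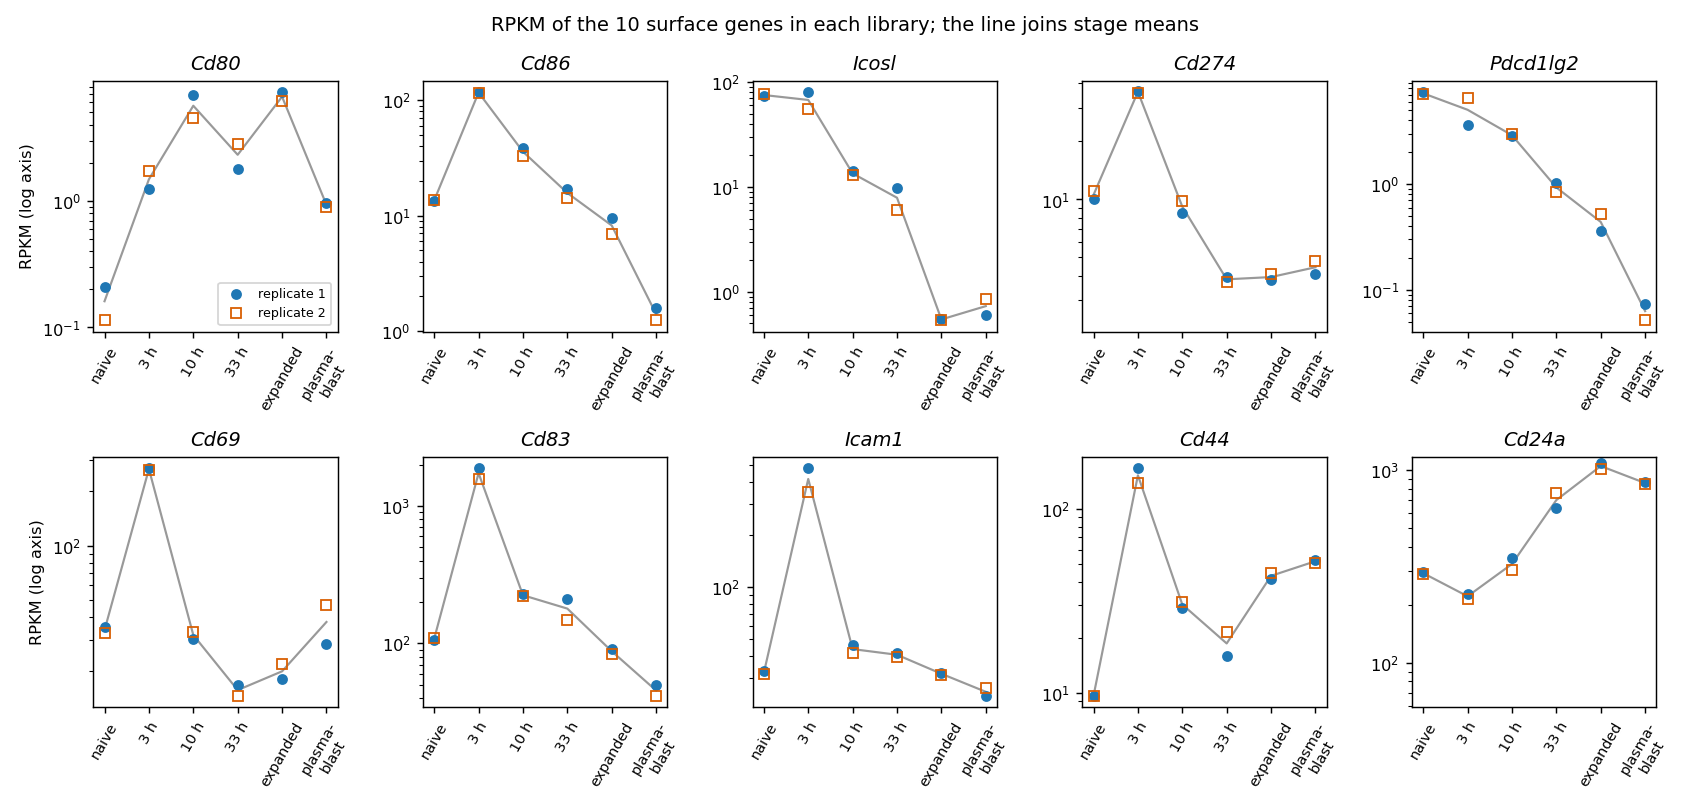
RPKM of each gene (vertical log axis, a separate scale for each gene) in both replicates of the 6 stages, with a grey line through the stage means. Of the 10 panels, 7 rise steeply to 3 h, and only Cd80 among these is higher at 10 h than at 3 h. The highest stage mean is that of naive cells for Icosl and Pdcd1lg2 and that of expanded B cells for Cd24a. For Icosl the naive and 3 h libraries overlap.

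In the later transitions glmTreat called fewer of the members. From 33 h to expanded B cells 2 members rose and 3 fell, against 6.94% and 3.66% of all tested genes. Without replicate 1 at 33 h or without expanded replicate 2, fewer members were called in this step, and so were fewer of all tested genes. From expanded B cells to plasmablasts 0 rose and 4 fell, against 13.9% and 12.2%. Set against naive cells, cells at 33 h had 3 members higher and 4 lower (22.3% and 20.8% of all tested genes), expanded B cells 3 higher and 3 lower (24.9% and 22.2%), and plasmablasts 3 higher and 5 lower (26.6% and 23.4%). In each of these 3 comparisons the higher genes were Cd80, Cd44 and Cd24a. These comparisons share the naive libraries, and consecutive transitions share the libraries of the stage between them. The quasi-likelihood F-test, which asks for a change of any size, called 8, 10, 8, 8 and 7 members in the 5 transitions in turn, against 71.0%, 62.3%, 45.5%, 39.6% and 56.9% of all tested genes. Against naive cells it called 9, 8 and 9 members (33 h, expanded and plasmablast), against 71.0%, 73.1% and 74.1% of all tested genes.

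**Figure D2:**
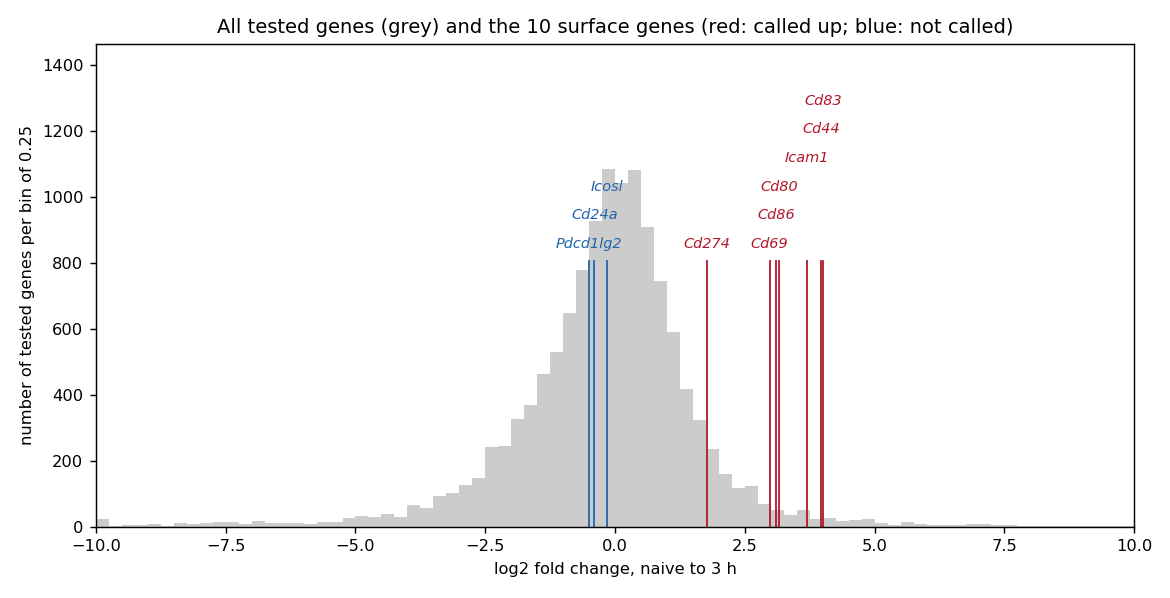
Number of tested genes (vertical axis) by log2 fold change from naive cells to 3 h in bins of 0.25 (horizontal axis), with a vertical line for each of the 10 genes. The 7 genes called up lie between 1.78 and 4.00, and the 3 genes that were not called lie between -0.50 and -0.16.

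RefSeq windows upstream of the start were at hand for 6 of the 10 genes on GRCm38.p6, the mm10 build of the files. Of these windows, 4 end within a few bases of the outer edge of the gene, and they are shown because Icam1 and Cd44 rose strongly at 3 h while Icosl and Pdcd1lg2 were not called. Each gives the 250 bases before the start, 5′ to 3′ on the strand of the gene, and capitals mark matches on either strand to GGAANNTCC or to a looser ten-base pattern (GGG, any 5 bases, CC), both loose patterns for the kB site that NF-kB proteins bind, or to the AP-1 pattern TGANTCA. A match to the ten-base pattern need not be a kB site.
Icam1, chr9:21015690-21015939, + strand: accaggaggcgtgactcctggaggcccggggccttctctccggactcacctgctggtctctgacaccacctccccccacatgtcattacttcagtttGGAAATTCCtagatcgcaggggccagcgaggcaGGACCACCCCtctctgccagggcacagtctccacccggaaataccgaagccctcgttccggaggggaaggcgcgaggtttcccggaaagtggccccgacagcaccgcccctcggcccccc
Cd44, chr2:102901666-102901915, - strand: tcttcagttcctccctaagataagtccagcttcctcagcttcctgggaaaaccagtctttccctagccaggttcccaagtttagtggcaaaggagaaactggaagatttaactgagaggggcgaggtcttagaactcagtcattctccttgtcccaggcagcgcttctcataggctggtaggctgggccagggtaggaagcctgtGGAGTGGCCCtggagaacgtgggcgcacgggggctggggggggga
Icosl, chr10:78069118-78069367, + strand: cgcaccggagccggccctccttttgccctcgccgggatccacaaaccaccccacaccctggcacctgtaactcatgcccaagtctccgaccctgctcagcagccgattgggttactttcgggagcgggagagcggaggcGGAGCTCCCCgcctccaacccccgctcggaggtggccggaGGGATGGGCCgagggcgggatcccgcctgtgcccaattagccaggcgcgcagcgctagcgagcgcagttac
Pdcd1lg2, chr19:29410669-29410918, + strand: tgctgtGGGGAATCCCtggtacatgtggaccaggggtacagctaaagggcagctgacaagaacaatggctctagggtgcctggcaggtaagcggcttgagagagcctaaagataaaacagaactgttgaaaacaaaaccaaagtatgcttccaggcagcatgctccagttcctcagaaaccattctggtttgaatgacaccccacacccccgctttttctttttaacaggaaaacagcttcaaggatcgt
The ten-base pattern was found in 45.8% of 32851 such windows over all genes, the nine-base pattern in 3.586% and the AP-1 pattern in 6.749%. Icam1 held a match to the nine-base pattern from -153 to -145 and a match to the ten-base pattern from -120 to -111, counted back from the start. Icosl held 2 matches to the ten-base pattern, and Cd44 and Pdcd1lg2 held 1 each. The windows of Cd80 and Cd274 lie inside the annotated span of the gene and are not printed. That of Cd80 held the AP-1 pattern from -42 to -36 beside 2 matches to the ten-base pattern, and that of Cd274 held none of the 3. Matches therefore stood in the windows of members that rose at 3 h and of members that were not called, and they describe the letters only.

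Cd80, a ligand of CD28 and CTLA-4, was almost silent in naive cells and was the member that rose in most transitions. The gene spans chr16:38457430-38495958 (mm10). For Cd80, the naive libraries held 0.208 and 0.114 RPKM, from 12 and 5 counts, and those of 3 h 1.25 and 1.72. At 10 h Cd80 stood at 6.81 and 4.49 and by 33 h at 1.79 and 2.83, with 7.20 and 6.12 for expanded B cells and 0.971 and 0.892 for plasmablasts. Both naive libraries lay below all the others, and the libraries at 10 h and of expanded B cells overlapped at the top. The log2 fold change was 3.16 ± 0.43 (SE) to 3 h (adjusted p = 6.7e-05) and a further 1.90 ± 0.28 to 10 h (adjusted p = 5e-04), so that Cd80 went on rising when the other early genes had turned down. It then fell by 1.31 ± 0.25 to 33 h (adjusted p = 0.014) and rose by 1.55 ± 0.25 to expanded B cells (adjusted p = 0.0046). The dip at 33 h was the least certain of these: without replicate 1 at 10 h the fall was no longer called (log2 fold change -0.97, adjusted p = 0.18), nor without replicate 1 at 33 h (-0.996, adjusted p = 0.16), and without the latter the rise to expanded B cells was 1.23 with an adjusted p of 0.083. From expanded B cells to plasmablasts Cd80 fell by 2.84 ± 0.29, or 7.16-fold (adjusted p = 1.4e-05). In order of level, neighbours that the F-test did not tell apart were expanded B cells and 10 h (adjusted p = 0.42), 33 h and 3 h (0.08), and 3 h and plasmablasts (0.067).

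Cd86, the other ligand of CD28 and CTLA-4, was present in naive cells and had a single early peak. The gene spans chr16:36568956-36666158. For Cd86, the naive libraries held 13.4 and 13.7 RPKM and those of 3 h 117 and 116. At 10 h Cd86 stood at 38.6 and 33.1 and by 33 h at 17.2 and 14.3, with 9.55 and 6.87 for expanded B cells and 1.57 and 1.24 for plasmablasts. After 3 h each stage lay wholly below the one before it. The rise to 3 h was 8.61-fold (log2 fold change 3.11 ± 0.15, adjusted p = 6e-09). Cd86 then fell by 1.70 ± 0.15 to 10 h (adjusted p = 8.8e-06), by 1.19 ± 0.14 to 33 h (adjusted p = 0.0015) and by 2.56 ± 0.18 from expanded B cells to plasmablasts (adjusted p = 6e-07). The step from 33 h to expanded B cells (log2 fold change -0.94 ± 0.15) had an adjusted p of 0.041 and was lost in 10 of 23 alternative fits, among them those without replicate 1 at 33 h (-0.79, adjusted p = 0.32), without expanded replicate 2 (-0.72, 0.44), and without either naive (0.056 for both) or either plasmablast library (0.063 and 0.064). At 33 h Cd86 was near its naive level (log2 fold change 0.22 ± 0.15, adjusted p = 1), and expanded B cells did not pass the test against naive cells (-0.72 ± 0.15, adjusted p = 0.13) except without expanded replicate 1 (-0.97, adjusted p = 0.011) and with the F-test (adjusted p = 0.00073). Plasmablasts held 9.72-fold less than naive cells (adjusted p = 8.1e-09).

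Icosl, the ligand of ICOS, was the B7 gene with the highest level in naive cells, and it had the widest span between stages of the 10 genes. The gene spans chr10:78069368-78079525. For Icosl, the naive libraries held 74.3 and 76.3 RPKM and those of 3 h 79.7 and 55.4, and these stages overlapped. At 10 h Icosl stood at 14.0 and 12.9 and by 33 h at 9.81 and 5.97, with 0.556 and 0.535 for expanded B cells and 0.601 and 0.860 for plasmablasts. The highest and lowest stage means differed 138-fold. The change to 3 h was not called (log2 fold change -0.16 ± 0.20, adjusted p = 1) and its sign turned without replicate 2 at 3 h (0.06). In separate steps, Icosl fell by 2.32 ± 0.22 on the log2 scale from 3 to 10 h (adjusted p = 1.6e-05) and fell by 3.86 ± 0.28 from 33 h to expanded B cells (adjusted p = 6.3e-06). The step between them, from 10 to 33 h, was not called (-0.76 ± 0.21, adjusted p = 0.33) but was without replicate 1 at 33 h (-1.17, adjusted p = 0.016). Expanded B cells and plasmablasts were not told apart (F-test, adjusted p = 0.33).

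Cd274 encodes PD-L1, a ligand of PD-1. The gene spans chr19:29362107-29388095. For Cd274, the naive libraries held 10.1 and 11.0 RPKM, those of 3 h 36.7 and 35.7 and those of 10 h 8.53 and 9.84. By 33 h Cd274 stood at 3.96 and 3.74, with 3.80 and 4.12 for expanded B cells and 4.11 and 4.79 for plasmablasts. The last 3 stages lay close together, with expanded B cells overlapping both of the others, and below all earlier libraries. The rise to 3 h was the smallest of the 7 (log2 fold change 1.78 ± 0.11, adjusted p = 1.6e-07). Cd274 then fell by 1.98 ± 0.11 to 10 h (adjusted p = 1.5e-07) and fell by 1.25 ± 0.11 to 33 h (adjusted p = 8.9e-05). Beyond 33 h no step was called (0.04 ± 0.11 and 0.17 ± 0.12, adjusted p = 1 for both), and the sign of the first of these turned without replicate 2 at 33 h (-0.01) and without expanded replicate 2 (-0.02). Plasmablasts held 2.37-fold less than naive cells (adjusted p = 2.2e-05). The gene overlaps Plgrkt, which reached 1475 counts in a library, so reads in the shared stretch are of uncertain origin.

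Pdcd1lg2 encodes PD-L2, the other ligand of PD-1, and lies next to Cd274 on chromosome 19, at 29410919 to 29472927, with 22.8 kb and 0 annotated genes between them. Both neighbours fell from 10 to 33 h and were called lower than naive cells at 33 h and on day 4. Only Cd274 rose at 3 h, and only Pdcd1lg2 was called lower in plasmablasts than in expanded B cells. For Pdcd1lg2, the naive libraries held 7.34 and 7.06 RPKM, those of 3 h 3.61 and 6.46 and those of 10 h 2.82 and 2.97. By 33 h Pdcd1lg2 stood at 1.01 and 0.844, with 0.359 and 0.518 for expanded B cells and 0.0744 and 0.0516 for plasmablasts, from 6 and 5 counts. Each stage lay below the one before it without overlap. No rise was seen at 3 h (log2 fold change -0.50 ± 0.22, adjusted p = 0.58), and the replicates at 3 h were the least alike: without replicate 2 the change to 3 h was -1.02 (adjusted p = 0.011), and without replicate 1 the change from 3 to 10 h was -1.16 (adjusted p = 0.003) in place of -0.81 ± 0.22 (adjusted p = 0.15). Pdcd1lg2 fell by 1.63 ± 0.24 from 10 to 33 h (adjusted p = 0.0015) and by 2.79 ± 0.49 from expanded B cells to plasmablasts (adjusted p = 0.0012). The step from 33 h to expanded B cells (-1.10 ± 0.28) was not called (adjusted p = 0.10) but was without either library at 3 h (adjusted p = 0.019 and 0.016). Plasmablasts held 114-fold less than naive cells (adjusted p = 4.2e-09).

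The make-up of the B7 genes varied between stages. The 5 genes summed to 105 and 108 RPKM before activation, and to 238 and 216 by 3 h. The sum then stood at 70.8 and 63.3 (10 h), 33.8 and 27.6 (33 h), 21.5 and 18.2 (expanded) and 7.32 and 7.83 (plasmablasts). Icosl made up 70.5% of the sum in both naive libraries. From 3 to 33 h Cd86 was the largest part, between 49.1% and 54.5% in the 6 libraries. In expanded B cells Cd86 (44.5% and 37.8%) and Cd80 (33.5% and 33.7%) were the leading pair, and Icosl had dropped to 2.59% and 2.95%. In plasmablasts Cd274 was the largest part, with 56.1% and 61.2%. These shares carry no test and say nothing of the amount of protein.

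**Figure D3:**
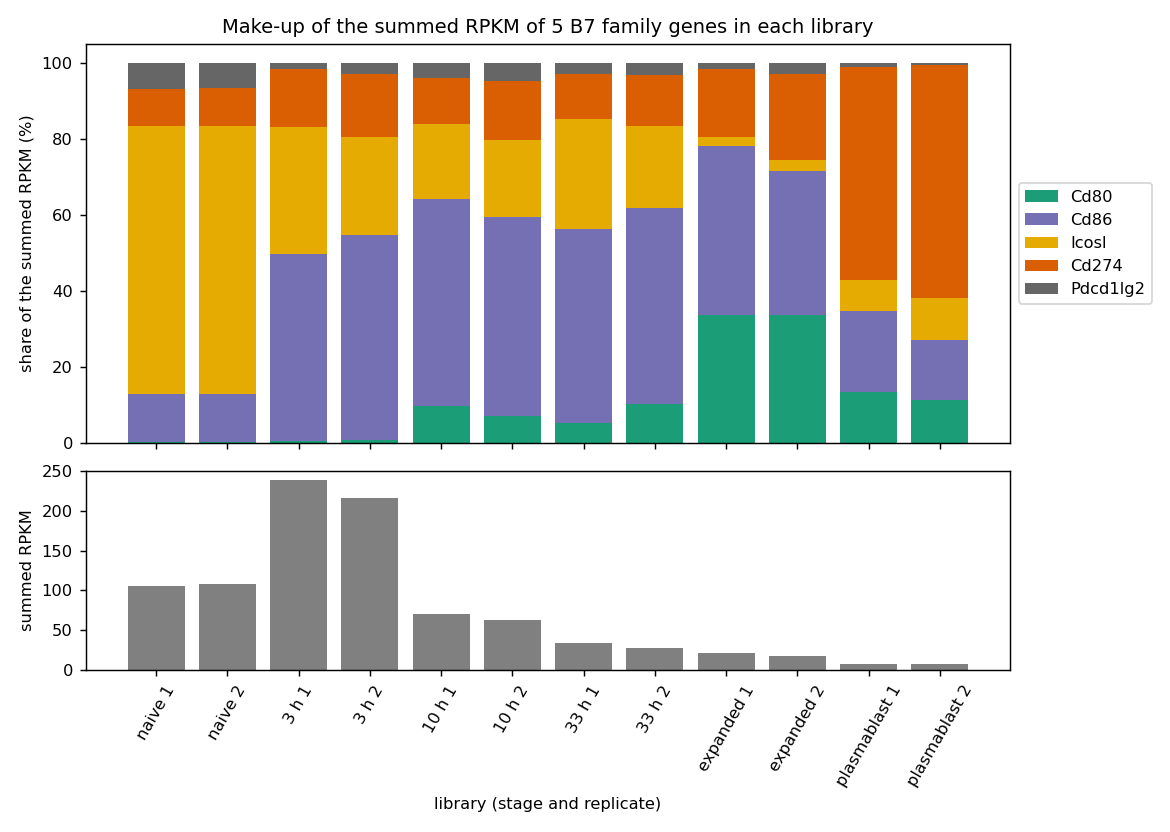
Share of each of 5 B7 genes in their summed RPKM (upper panel, percent) and the sum itself (lower panel, RPKM) in each of the 12 libraries. The largest share passes from Icosl (70.5% in naive cells) to Cd86 (at least 37.8% from 3 h to expanded B cells) and then to Cd274 (56.1% and 61.2% in plasmablasts), while the sum falls from 238 and 216 at 3 h to 7.32 and 7.83.

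The ratio of Cd86 to Cd80 RPKM was 64.1 and 121 before activation and 94.0 and 67.8 by 3 h. It dropped to 5.67 and 7.38 (10 h) and to 9.57 and 5.03 (33 h), with 1.33 and 1.12 for expanded B cells and 1.61 and 1.39 for plasmablasts. Cd86 thus exceeded Cd80 in all 12 libraries, by a wide margin up to 3 h and a narrow one on day 4. The naive ratios rest on the few Cd80 counts given above. The ratio of Cd274 to Pdcd1lg2 was 1.38 and 1.56 before activation, 10.2 and 5.52 by 3 h, then 3.02 and 3.32 (10 h) and 3.90 and 4.43 (33 h). Expanded B cells had ratios of 10.6 and 7.94, and plasmablasts 55.2 and 92.7, the latter from the few counts of Pdcd1lg2.

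Cd69 encodes a lectin-like receptor that holds lymphocytes in tissue by pulling S1PR1 from the surface. Because CD69 protein was used to sort the cells at 3, 10 and 33 h, comparisons that set these stages against the others are not independent of the gate. The gene spans chr6:129267324-129275375. For Cd69, the naive libraries held 35.2 and 32.5 RPKM, those of 3 h 269 and 263 and those of 10 h 30.4 and 33.2. By 33 h Cd69 stood at 16.9 and 14.6, with 18.1 and 21.9 for expanded B cells and 28.4 and 46.8 for plasmablasts. Only 3 h stood clear of the naive level on the high side, although all 3 early stages were gated on the protein, and the cells at 33 h, also CD69+, had the lowest libraries of all. The RNA rose 7.86-fold to 3 h (log2 fold change 2.97 ± 0.19, adjusted p = 1.8e-07) and fell by 3.07 ± 0.19 to 10 h (adjusted p = 4.6e-07). The further fall to 33 h (-1.01 ± 0.19, adjusted p = 0.036) was not called without any 1 of the libraries at 3, 10 or 33 h (adjusted p from 0.058 to 0.19). The difference between naive cells and 33 h (-1.11 ± 0.19, adjusted p = 0.0058) was at the threshold without replicate 2 at 33 h (-0.99, adjusted p = 0.05). The level in plasmablasts was 1.89-fold that in expanded B cells and did not pass the test (adjusted p = 0.055), with replicates that were 28.4 and 46.8 RPKM. It was called in 7 of 23 alternatives, among them those without plasmablast replicate 1 (log2 fold change 1.26, adjusted p = 0.00049) and without expanded replicate 2 (1.05, adjusted p = 0.046). Expanded B cells against naive cells were not called either (-0.76 ± 0.19, adjusted p = 0.12). This difference was called in 5 of 23 alternatives, namely without either plasmablast library (adjusted p = 0.035 and 0.036), with no filter on low counts (0.045), with only the 4 libraries compared (0.01) and with the F-test (0.0028).

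Cd83, whose protein stabilises MHC class II and CD86 at the surface, reached the highest level of any member. The gene spans chr13:43785112-43803133. For Cd83, the naive libraries held 106 and 109.8 RPKM and those of 3 h 1885 and 1579. At 10 h Cd83 stood at 227 and 221 and by 33 h at 209.5 and 149, with 91.7 and 83.5 for expanded B cells and 49.4 and 41.4 for plasmablasts. The libraries at 3 h stood far above all others, and from there each stage lay below the last. The rise was 16.0-fold (log2 fold change 4.00 ± 0.16, adjusted p = 1.4e-09) and the fall to 10 h 7.73-fold (adjusted p = 7e-08). The step from 10 to 33 h was not called, and the F-test did not find it either (log2 fold change -0.32 ± 0.14, F-test adjusted p = 0.084). Later Cd83 fell by 1.03 ± 0.14 on the log2 scale from 33 h to expanded B cells (adjusted p = 0.012) and fell by 0.95 ± 0.15 from there to plasmablasts (adjusted p = 0.015). The former was lost without replicate 1 at 33 h (-0.76, adjusted p = 0.23) or without expanded replicate 2 (-0.97, 0.095), and the latter without expanded replicate 1 (-0.88, 0.083) or without plasmablast replicate 2 (-0.80, 0.15). Cells at 33 h did not pass the test against naive cells (0.73 ± 0.14, adjusted p = 0.12) but did so without replicate 2 at 33 h (0.97, adjusted p = 0.004). Plasmablasts held 2.38-fold less Cd83 than naive cells (adjusted p = 0.00019).

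Icam1, which encodes the ligand of LFA-1, had the largest fall from 3 to 10 h of the 10 genes and no later step that was called. The gene spans chr9:21015940-21028814. For Icam1, the naive libraries held 32.8 and 31.5 RPKM and those of 3 h 483 and 354. At 10 h Icam1 stood at 46.4 and 41.6 and by 33 h at 41.9 and 39.7, with 32.1 and 31.4 for expanded B cells and 23.6 and 26.3 for plasmablasts. Apart from 3 h, all the libraries lay between 23.6 and 46.4. The rise was 3.70 ± 0.14 on the log2 scale (adjusted p = 5e-10) and the fall to 10 h 9.50-fold (adjusted p = 6.6e-09). From 10 h onwards no step was called (adjusted p = 1 for each). Expanded B cells were close to the naive level (log2 fold change -0.02 ± 0.13), and the sign of this difference turned without naive replicate 1 (0.01), without expanded replicate 2 (0.01) and with scaling by library size alone (0.03). The F-test placed plasmablasts below expanded B cells (adjusted p = 0.033) and naive cells below 33 h (adjusted p = 0.025).

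Cd44, which encodes the hyaluronan receptor and a widely used mark of lymphocytes that have met antigen, rose early, fell back and then rose again. The gene spans chr2:102811141-102901669. For Cd44, the naive libraries held 9.64 and 9.68 RPKM, those of 3 h 166 and 137 and those of 10 h 29.1 and 31.3. By 33 h Cd44 stood at 15.8 and 21.3, with 41.6 and 44.9 for expanded B cells and 53.0 and 50.8 for plasmablasts. Every later library was above both naive libraries, and no pair of stages overlapped. The rise to 3 h was 15.7-fold (log2 fold change 3.97 ± 0.14, adjusted p = 4.1e-10) and the fall to 10 h 5.02-fold (adjusted p = 1.2e-07). The step to 33 h was not called (-0.70 ± 0.13, adjusted p = 0.29), but was without replicate 2 at 33 h (-0.92, adjusted p = 0.016). Without the same library the difference between naive cells and 33 h (0.94 ± 0.13, adjusted p = 0.0054) was not called (0.73, adjusted p = 0.098). The rise from 33 h to expanded B cells was 2.33-fold (adjusted p = 0.00061), and plasmablasts held 5.37-fold more than naive cells (adjusted p = 1.2e-08). Counts were per gene, so the splice forms of Cd44 were not separated.

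Cd24a followed a course of its own, with its lowest level at 3 h and its highest on day 4. The gene spans chr10:43579169-43584265. For Cd24a, the naive libraries held 295 and 289 RPKM, those of 3 h 227 and 216 and those of 10 h 349 and 303. By 33 h Cd24a stood at 635 and 764, with 1083 and 1018 for expanded B cells and 871 and 843 for plasmablasts. No pair of stages overlapped. The change to 3 h was not called (log2 fold change -0.40 ± 0.10, adjusted p = 1), although the F-test found it (adjusted p = 0.0026). The step that passed was that from 10 to 33 h, of 1.10 ± 0.10 (adjusted p = 0.00025). Against naive cells Cd24a was 2.40-fold higher at 33 h (adjusted p = 7.9e-06), 3.60-fold higher in expanded B cells (adjusted p = 4.3e-08) and 2.94-fold higher in plasmablasts (adjusted p = 2.4e-07). Its span between stages, 4.74-fold, was the narrowest of the 10 genes.

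**Figure D4:**
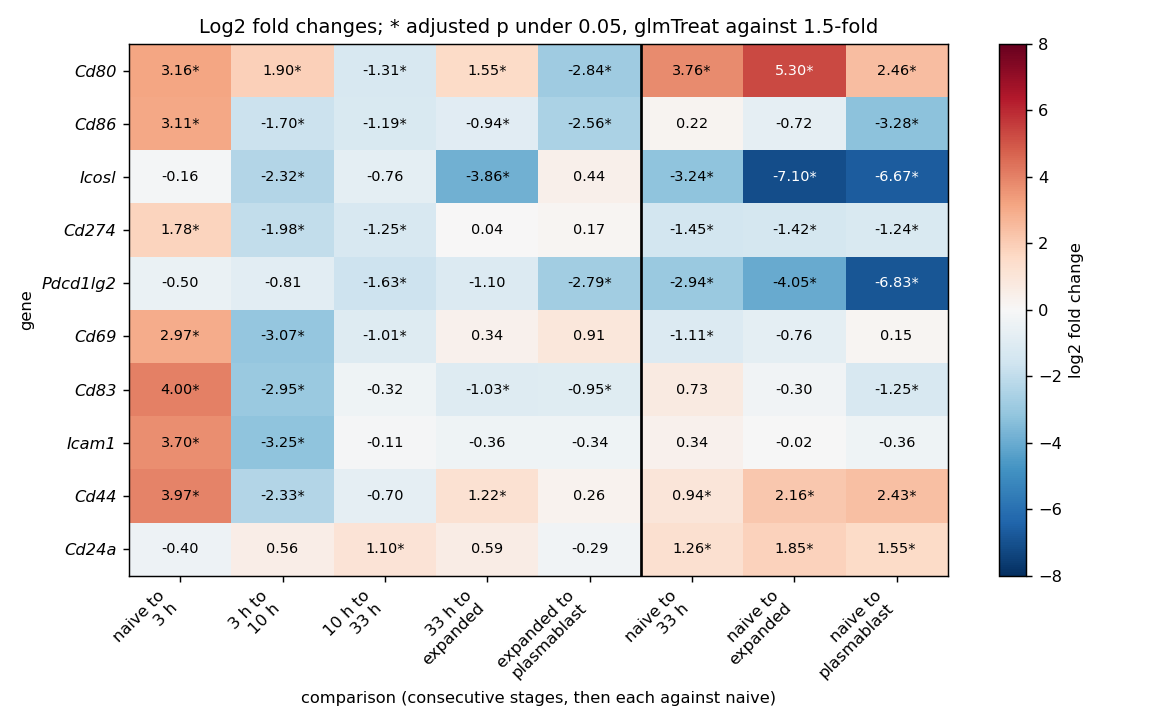
Log2 fold changes of the 10 genes (rows) in the 5 consecutive transitions and in 3 comparisons with naive cells (columns), coloured from blue (lower in the later stage) to red (higher), with an asterisk where glmTreat called the change. The column from naive cells to 3 h holds 7 called rises and that from 3 to 10 h holds 7 called falls, while the lowest value is -7.10, for Icosl from naive to expanded B cells.

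Genes that act on or with these proteins were read from the same fit, and their counts stand against the shares of all tested genes: 21.0% rose and 24.3% fell to 3 h, 17.4% and 13.4% did so from 3 to 10 h, 6.94% and 3.66% from 33 h to expanded B cells, and 13.9% and 12.2% from there to plasmablasts. The median log2 fold changes of all tested genes were -0.03, 0.02, -0.02 and -0.05 in these steps. Among the genes for receptors and other members of the B7 family (8 of 11 tested), 2 rose and 1 fell in the first 3 h (median log2 fold change 0.22), and 6 rose and 0 fell from 33 h to expanded B cells, with a median of 2.63. With the 1 gene that had a stage at the floor set to its bound (the floor in place of that stage, or 0 where both stages were at it), that median was 1.998. A further 4 rose and 0 fell from expanded B cells to plasmablasts (median 0.90). The latter were Vsir, Btn1a1, Cd28 and Ctla4, and both receptors of CD80 and CD86 were thus among them. Ctla4 averaged 0.035 RPKM before activation, 3.56 ± 1.54 (SD) on expansion and 68.8 ± 1.09 in plasmablasts (log2 fold change of the last step 4.28, adjusted p = 2e-06). Cd28 went from 0.813 ± 0.305 RPKM on expansion to 21.7 ± 1.96 in plasmablasts (4.75, adjusted p = 6.9e-08). Of 8 T cell markers, 4 were over the floor in both plasmablast libraries. From expanded B cells to plasmablasts Cd3g went from 0.316 to 0.853 CPM, Cd4 from 0.114 to 0.338, Cd3d from 0.134 to 0.128 and Lck from 36.0 to 7.77. Cd3e, Cd8a, Cd8b1 and Themis were at or under the floor in both of these stages. The whole list summed to 34.8 to 38.4 CPM in expanded B cells and 9.06 to 9.14 CPM in plasmablasts, and the part of T cells in the rise of Cd28 and Ctla4 was not tested. Pdcd1, which encodes PD-1, rose in each of the 3 transitions after 3 h, from 0.0315 ± 0.0036 RPKM at 3 h to 11.5 ± 0.356 in expanded B cells.

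Of 8 costimulators of the TNF family and partners, 3 rose and 1 fell in the first 3 h (21.0% and 24.3% of all tested genes), and 1 rose and 5 fell from expanded B cells to plasmablasts (13.9% and 12.2%). Their median log2 fold change to 3 h was 1.17, or 0.36 with 2 genes at their bound, and that of the last step was -2.15. Cd40, through which T cells help B cells, was 45.4 ± 2.08 RPKM (SD) in naive cells and 184 ± 1.40 at 3 h, and expanded B cells had 28.8 ± 0.619 where plasmablasts had 4.72 ± 0.380 (log2 fold change -2.61, adjusted p = 2.1e-09). Tnfsf4 (OX40 ligand), Cd70, Tnfsf9 (4-1BB ligand) and Tnfsf14 were the others that fell, and Tnfsf18 rose. Of 11 genes of the ICAM family and the leukocyte integrins, 3 rose and 5 fell to 3 h (median log2 fold change -0.51), and 1 rose and 7 fell to 10 h (median -0.86, or -0.81 with 1 gene at its bound), where 17.4% and 13.4% of all tested genes did so. Icam4 and Icam5, relatives that lie beside Icam1, rose with it at 3 h (2.10, adjusted p = 0.012, and 2.53, adjusted p = 0.00014). They fell with it from 3 to 10 h (-1.81 and -2.22, adjusted p = 0.025 and 0.00044). Their levels were low. Icam4 went from 0.135 ± 0.131 RPKM (SD) in naive cells to 0.646 ± 0.0429 at 3 h, and Icam5 from 0.160 ± 0.0307 to 0.911 ± 0.0981. Itgal and Itgb2, which encode the chains of LFA-1, were not called at 3 h. Of 8 tested SLAM family genes and adaptors, 1 rose and 4 fell to 3 h, against the same 21.0% and 24.3%, with a median log2 fold change of -0.46.

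Of 10 tested genes for turnover and partners of the proteins, 3 rose and 3 fell in the first 3 h, with a median log2 fold change of 0.21, against 21.0%, 24.3% and -0.03 over all tested genes. The largest fall was that of Marchf1, which encodes the ubiquitin ligase that removes CD86 and MHC class II from the surface, from 64.6 ± 6.06 RPKM (SD) in naive cells to 2.27 ± 0.523 at 3 h (log2 fold change -4.81, adjusted p = 1.1e-08). S1pr1, whose product CD69 removes from the surface, went from 160 ± 2.22 to 10.2 ± 0.624 RPKM (-3.97, adjusted p = 4.7e-08). Siglecg, a receptor for CD24, went from 83.2 ± 0.627 to 17.6 ± 1.10 RPKM (-2.25, adjusted p = 4.2e-08). Ezr, a linker of CD44 and ICAM proteins to actin, rose by 1.23 (adjusted p = 3e-06) and fell by 2.30 to 10 h (adjusted p = 7.8e-09). Cmtm6, which protects PD-L1 from breakdown, was not called in any of the 5 transitions (adjusted p = 1 for each). Its mean RPKM was still lower at each stage than at the last. The naive mean was 88.9 ± 0.247 (SD), followed by 69.2 ± 14.6 (3 h), 54.3 ± 0.994 (10 h) and 38.8 ± 2.48 (33 h). Expanded B cells had 37.8 ± 0.114 and plasmablasts 35.1 ± 0.282. The F-test called the steps to 3, 10 and 33 h (adjusted p = 0.012, 0.018 and 0.0041) but not the later ones (0.82 and 0.45).

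In a list of 12 genes for NF-kB proteins and their feedback genes, 12 rose to 3 h and 11 fell to 10 h, against 21.0% and 13.4% of all tested genes, with Bcl3 not called in the latter. Their median log2 fold changes were 2.26 and -1.50, against -0.03 and 0.02 over all tested genes. Nfkbiz had the largest rise, from 1.10 ± 0.132 RPKM (SD) to 507 ± 55.0, and Tnfaip3 the largest fall to 10 h (log2 fold change -2.65). Among 21 other surface antigens, 7 rose and 6 fell to 3 h, against 21.0% and 24.3% of all tested genes, and 3 rose and 9 fell to 10 h (17.4% and 13.4%), with median log2 fold changes of -0.06 and -0.67. Il2ra (CD25) rose the most, by 7.44 (adjusted p = 1.1e-12), and Cd38 had the largest fall at 3 h (-4.08, adjusted p = 8.5e-10).

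The likeness of courses was measured as Pearson's r of log2 RPKM over the 6 stage means, among 8604 genes whose log2 CPM averaged 3 or more. With 6 points and so many genes, values near 1 are frequent, and they are given as a description. The gene most like Cd44 was Irf4, a transcription factor of plasma cell differentiation (r = 0.99), and it was also the first over the 12 single libraries (r = 0.99). Cd24a was most like Ect2 and Aurka, genes of cell division (r = 0.996 and 0.995). Cd83 was most like Adora2a, an adenosine receptor gene, and Tada1, Icam1 most like Supt6 and Ccnl2, and Cd86 most like Hnrnpdl and Swap70, a B cell signalling gene. Icosl was nearest to Zkscan6 and Dcp1b over stage means, and over single libraries to Bcl6, a transcription factor of germinal centre B cells (r = 0.98). The nearest genes were Glrx3 and Crcp for Cd80, Cert1 and Pnpla2 for Cd69, Homez and Dync1i2 for Cd274, and Prr14l and Mga for Pdcd1lg2.

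Among the members themselves, the courses of Cd83 and Icam1 were most alike (r = 0.96), followed by Icosl and Pdcd1lg2 (0.94), Cd86 and Cd83 (0.93) and Cd69 and Cd274 (0.92). Cd24a ran opposite to Icosl (-0.94), Cd274 (-0.90) and Pdcd1lg2 (-0.90). Genes that share a receptor were less alike, with r = 0.16 for Cd80 and Cd86 and 0.74 for Cd274 and Pdcd1lg2. Cd80 and Cd86 both lie on chromosome 16, 1791 kb apart with 43 genes between them.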

How the data were processed

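Polyadenylated RNA of 12 libraries was sequenced as paired ends on a NextSeq instrument. The authors used Rsubread for alignment to mm10 (GRCm38) and its featureCounts, with the inbuilt Entrez annotation, for counting. The submitters' processing notes name CASAVA 1.8.2 for base calling. The deposited values are raw counts per gene and the exon length, neither normalized nor filtered, and the 12 single-sample files held the same counts as the series table. Whether counting used strand is not given in the sources used here.

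Of 27179 rows, 25275 matched a RefSeq gene table (GRCm38.p6). Following the study's methods, ribosomal RNA, mitochondrial, X and Y chromosome genes and variable immunoglobulin segments were removed with unmatched rows, leaving 23700 genes that hold 84.0% to 90.6% of all counts, and edgeR's filterByExpr kept 12750. R 4.3.3, edgeR 4.0.16, limma 3.58.1 and DESeq2 1.42.0 were used. Libraries were scaled by TMM. All 12 entered a robust quasi-likelihood fit with 1 group per stage, so p-values rest on a spread shared between stages and genes. Pairs of stages were tested with glmTreat (fold of 1.5) and with the F-test, both adjusted by Benjamini-Hochberg over all tested genes. With 2 libraries a group, no exact permutation test can pass the threshold, and none was run. CPM use total counts, RPKM TMM-scaled totals, and log2 RPKM for courses a pseudocount of 0.1.

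No pairing of samples by replicate number was detected (the closing section gives the check). The alternatives were other scalings and filters, DESeq2, a replicate block, fits to the 4 libraries compared and leaving out each library. The steps were tested on simulated data. The members and the gene lists were chosen with earlier results of these data known. Named genes were the 10 members, the 2 genes most like each, and the genes called with the largest rise and fall in each list, of which the text gives those it needs; other list genes named here were chosen for their known tie to a member after values were seen. The sort gates are given in part, and 1 marker gene is not reported here. Chromosome conformation was not analysed here.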

Additional observations from a re-analysis of the deposited data

How the results depend on the processing

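Of 80 values (10 genes in 8 comparisons), 51 were called, and 43 of these were called under every one of the 23 alternatives that gave a value. Cd80 and Pdcd1lg2 gave none with at least 10 counts in every library. Over all tested genes, 6.94% to 26.6% were called up and 3.66% to 24.3% down, depending on the comparison. DESeq2's Wald test against the same fold lost 6 of the 51 (Cd44 from naive cells to 33 h, Cd69 and Cd80 from 10 to 33 h, Cd83 and Cd86 from 33 h to expanded B cells, and Cd83 from there to plasmablasts). Of the 29 values that were not called, the F-test, which sets no minimum fold, called 16. It called 39.6% to 74.1% of all tested genes, depending on the comparison.

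The number of members called moved by over 1.5 times in these cases. From 33 h to expanded B cells it was 5, and it was 8 with the F-test and 3 with DESeq2's Wald test. It was also 3 with at least 10 counts in every library, where Cd80, called in the main fit, and Pdcd1lg2 were not tested. From expanded B cells to plasmablasts it was 4, and 7 with the F-test. Under each of these settings the calls over all tested genes moved in the same direction. The number of members from 33 h to expanded B cells also fell by over 1.5 times without replicate 1 at 33 h and without expanded replicate 2. The calls over all tested genes fell in both cases. Leaving out each library in turn gave 7 to 8 members from naive cells to 3 h, 8 to 9 from 3 to 10 h, 4 to 6 from 10 to 33 h, 2 to 6 from 33 h to expanded B cells, where the lowest was without replicate 1 at 33 h, and 3 to 5 from expanded B cells to plasmablasts. Against naive cells it gave 6 to 7 at 33 h, 6 to 7 in expanded B cells and 8 to 8 in plasmablasts.

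Signs turned only for values that were not called. With library size alone these were Cd44 (-0.075) and Cd274 (-0.17) from expanded B cells to plasmablasts, Icam1 from naive to expanded B cells (0.035) and Cd69 from naive cells to plasmablasts (-0.14). Without the filter Cd274 from 33 h to expanded B cells was -0.00088. Leaving out each library in turn moved Icam1 from naive to expanded B cells between -0.042 and 0.014 (0.0056 without expanded replicate 2), Icosl at 3 h between -0.44 and 0.055 (the latter without 3h replicate 2), Cd274 from 33 h to expanded B cells between -0.023 and 0.091 (-0.0087 without 33h replicate 2, and the lowest without expanded replicate 2), and Cd69 from naive cells to plasmablasts between -0.25 and 0.47 (the lowest without plasmablast replicate 2). The cause was not tested. Library size alone moved the median of all tested genes to -0.24 at 3 h, 0.35 from 3 to 10 h, -0.38 from expanded B cells to plasmablasts and -0.26 from naive cells to plasmablasts, and with it the calls over all genes were 2091 up and 3716 down at 3 h, where TMM gave 2674 and 3100, 3432 up and 1004 down from 3 to 10 h (2221 and 1711), and 1181 up and 2953 down from expanded B cells to plasmablasts (1776 and 1553).

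No pairing by the replicate numbers shared by the stages was detected: the correlations of same-numbered deviations over 15 pairs of stages ran from -0.14 to 0.08, and 0 were over 0.1. With 2 libraries a stage, this check cannot show that the samples were unpaired. With a replicate block the members called were 7, 8, 6, 5 and 4 in the 5 transitions and 7, 6 and 8 against naive cells, as without it.

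Depth limits Cd80 in naive cells and Pdcd1lg2 in plasmablasts, each from at most 12 counts. With 2 libraries a stage, the spread of a single gene is poorly known and the fit borrows it from other genes. RNA levels give no measure of surface protein.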
